A study of Mus musculus with 15 samples.

Results

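The tumour suppressor p53 and 9 genes of its arrest, death and feedback arms were followed in 4T1 cells, a mouse mammary carcinoma line, before and after treatment with berry extracts or berry gold nanoparticles. The 10 genes were Trp53, Cdkn1a, Mdm2, Mdm4, Ccng1, Sesn1, Gadd45a, Bbc3, Bax and Phlda3, taken by their symbols from the 40402 genes of the deposited count table, and all 10 passed the filter on low counts. Bulk RNA-seq covered untreated 4T1 cells, cells given blackberry extract (BLA), cells given blueberry extract (BLU), and cells given the gold nanoparticles made with the blackberry (BLA-A) or blueberry (BLU-A) extract. All groups share the labelled wild-type genotype, the culture medium and seeding a day before treatment, and the labels state neither dose nor exposure time. Each condition had 3 labelled columns that came from 1 sequenced library and differed by less than sampling noise, so they were counted as 1 sample, and no difference between 2 conditions has a replicate check.

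p53 is a transcription factor that is held at a low level by Mdm2, a ubiquitin ligase, and by its relative Mdm4, and is released when DNA is damaged or the cell is stressed. It then switches on genes that stop the cell cycle, such as Cdkn1a, genes that permeabilize mitochondria, such as Bax and Bbc3, and Mdm2 itself, which closes a feedback loop. The 4T1 line is generally described as lacking working p53, and many of these targets also answer to other transcription factors. A count per gene does not show which protein a transcript encodes, so the level of Trp53 below is that of its RNA only.

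p53 binds a pair of decamers, each with a C and a G that flank a central pair of bases. Sequence matches to this response element within 3000 bases of the annotated start of each gene are shown to place the genes on the genome, in GRCm39 and on the gene's own strand, with the core from C to G of each decamer in capitals. Distances run from the gene's annotated start to the centre of the match.

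Cdkn1a, 24 bases upstream of the start, chr17:29309902-29309921 (+): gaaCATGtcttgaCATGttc
Ccng1, 150 bases upstream, chr11:40646289-40646308 (-): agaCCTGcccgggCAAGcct
Ccng1, 375 bases into the gene, intronic, chr11:40645763-40645782 (-): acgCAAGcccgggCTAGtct
Bax, 317 bases into the gene, exonic in GENCODE, chr7:45115998-45116017 (-): gggCAGGcccgggCTTGtcg
Mdm2, 710 bases into the gene, exonic in GENCODE, chr10:117546010-117546029 (-): ggtCAAGttgggaCACGtcc
Bbc3, 1102 bases into the gene, exonic in GENCODE, chr7:16043411-16043430 (+): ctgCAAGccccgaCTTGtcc

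The Cdkn1a match and both Ccng1 matches above had 1 letter off the p53 consensus, the Bax match had 2, and the Mdm2 and Bbc3 matches had 3. With both C and G kept in each decamer, no spacer and at most 3 letters off, 7 of the 10 genes held a match, against 27.2% of 13641 protein-coding genes scanned. With at most 1 letter off, Cdkn1a and Ccng1 held a match, against 1.04% of genes. Trp53 (4 matches), Mdm4 (1) and another Ccng1 match had 3 letters off, and Gadd45a, Phlda3 and Sesn1 had none in this window, which says only that these letters were not there. The allowance of 3 letters was set after a stricter one, with both central base pairs kept to A or T and at most 2 letters off, had been seen to leave Cdkn1a and Ccng1 alone (3.83% of genes).

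The BLA-A library stood apart from the other 4 in these genes. It had the highest level of 4 of the 10 genes (Cdkn1a, Mdm2, Bax and Phlda3) and the lowest of another 4 (Trp53, Mdm4, Sesn1 and Gadd45a). How often BLA-A was highest or lowest over all genes was not counted. Levels are given in CPM, the usual scale of counts relative to the library's total, after normalization by the trimmed mean of M-values (TMM), and a fold change is the log2 ratio of CPM + 0.5, which understates the change of low genes. The threshold was a log2 fold change of more than 1 in either direction. Of the 17647 genes kept, 20.9% were past it with BLA-A, 16.5% with BLA, 10.3% with BLU and 7.85% with BLU-A, each against untreated cells. BLA-A thus differed most over all genes as well. Intervals are 95% counting intervals of the ratio of the 2 counts, without the added 0.5 CPM, and cover counting error only. Levels are said to overlap when their own 95% counting intervals do, and the interval of the ratio can then still exclude 0. In bulk RNA, fewer cells that express a gene and less RNA per cell cannot be told apart. The 4 comparisons with untreated cells share the 1 untreated library.

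**Figure D1:**
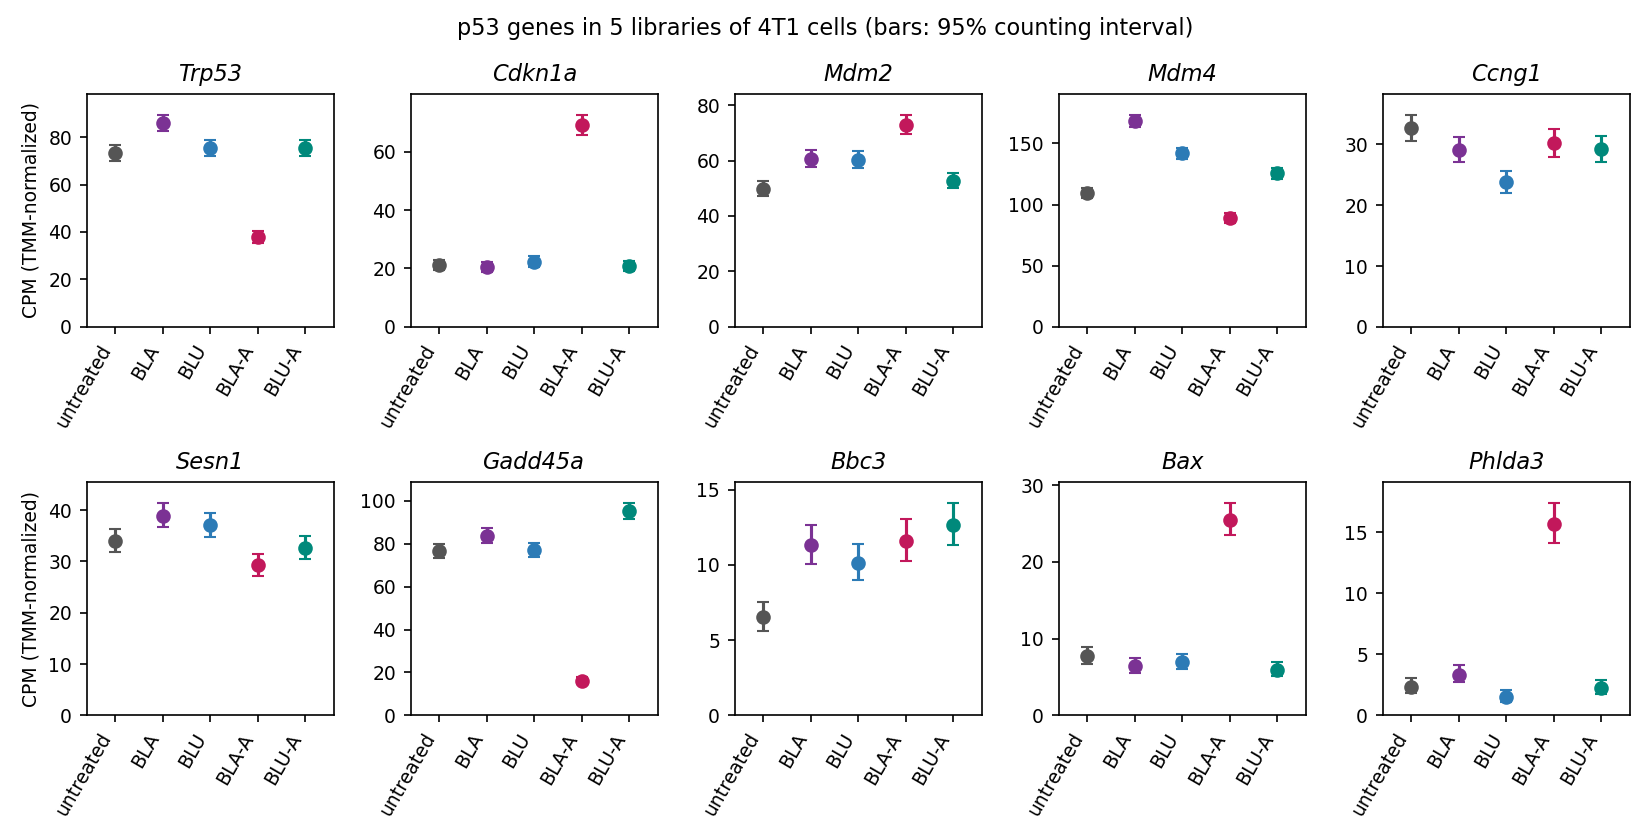
Level of each of the 10 genes (TMM-normalized CPM, each axis from 0) in the untreated, BLA, BLU, BLA-A and BLU-A libraries, with 95% counting intervals and 1 library per condition. BLA-A sits away from the other 4 libraries for Trp53, Cdkn1a, Gadd45a, Bax and Phlda3, for example at 16.1 CPM for Gadd45a and 69.2 CPM for Cdkn1a.

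Total counts per library ran from 25613778 with BLA-A to 26956442 with BLA, and the TMM factor was 0.904 with BLA-A against 1.01 to 1.035 in the other 4 libraries. The lncRNA gene Gm26917 took from 4.55% of the counts in BLU to 7.84% with BLA-A. Scaling by total counts alone in place of TMM shifted the log2 fold changes of BLA-A against untreated cells by a median of -0.19, and the share of genes past the threshold that were higher in BLA-A went from 40.9% to 28.4%. Of the 7 epithelial markers, summed at 985 to 1760 CPM, Krt18 had the most counts, 571 CPM in untreated cells. The 10 markers of blood, vessel, stromal and fat cells summed to 3.58 to 8.85 CPM, Lyz2 and Hbb-bs had no count in any library, and none had more than 60 counts. Of the 5 libraries, BLA-A had the highest epithelial sum and the lowest sum of the other markers. Of the 6 epithelial markers kept, 5 were above untreated cells in BLA-A. Epcam went the other way and was lowest there, at 39.7 CPM against 68.8 in untreated cells. The part of these markers in the results was not tested. Each of the 15 labelled samples carries its own batch date, so batch and condition cannot be told apart.

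Trp53 RNA was present in all 5 libraries and lowest after BLA-A. The gene lies at chr11:69469669-69482701 on the plus strand and had 73.1 CPM in untreated cells, 85.9 with BLA, 75.4 with BLU, 37.8 with BLA-A and 75.4 with BLU-A. The BLU, BLU-A and untreated levels overlapped within counting error, BLA lay above them and BLA-A below. The log2 fold change in BLA-A was -0.94 (counting interval -1.07 to -0.84), just short of the threshold, and it was 0.23 with BLA and 0.04 in both BLU and BLU-A. Wrap53, a gene on the opposite strand that overlaps 11.4% of the Trp53 span, had 229 counts in untreated cells, 172 with BLA, 330 with BLU, 383 with BLA-A and 290 with BLU-A. Its counts were thus highest where those of Trp53 were lowest (875 counts in BLA-A against 1951 in untreated cells). Counting was by strand, but the reads were entered as single-end from merged files, and whether a mate on the other strand was counted for the partner gene was not tested.

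Both regulators of p53 protein stayed within the threshold in every treatment. Mdm2, which marks p53 for degradation and is itself a p53 target, was at 49.7 CPM in untreated cells, 60.7 with BLA, 60.3 with BLU, 73.0 with BLA-A and 52.7 with BLU-A. It was highest in BLA-A, with a log2 fold change of 0.55 (0.45 to 0.66), while the BLU-A and untreated levels overlapped within counting error. Mdm4, which masks the activation domain of p53, was at 109 CPM in untreated cells, 169 with BLA, 142 with BLU, 88.8 with BLA-A and 125 with BLU-A. No 2 libraries overlapped for Mdm4, and their order was BLA, BLU, BLU-A, untreated and BLA-A. Its log2 fold changes were 0.62 with BLA, 0.38 with BLU and 0.20 with BLU-A, against -0.30 (-0.38 to -0.22) with BLA-A. Thus Mdm2 and Mdm4 were both higher than in untreated cells after either extract, and lay on opposite sides of the untreated level after BLA-A.

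Among the arrest genes, Cdkn1a, the inhibitor of cyclin-dependent kinases that carries out p53-driven arrest, differed in the BLA-A library. It lies at chr17:29309936-29319701, just past the match printed for it, and was at 21.0 CPM in untreated cells, 20.4 with BLA, 22.3 with BLU, 69.2 with BLA-A and 20.9 with BLU-A. The untreated, BLA, BLU and BLU-A levels overlapped within counting error and BLA-A lay above them all. The log2 fold change in BLA-A was 1.69 (1.58 to 1.86), a 3.24-fold higher level, and it was between -0.04 and 0.08 in the other 3 treatments. Levels of Trp53 and Cdkn1a RNA thus lay on opposite sides of untreated cells in BLA-A.

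Gadd45a, a stress protein that slows the cycle and binds repair factors, went the other way. It was at 76.6 CPM in untreated cells, 83.7 with BLA, 76.9 with BLU, 16.1 with BLA-A and 95.1 with BLU-A. BLA-A lay below the other libraries and BLU-A above them, with BLU and untreated cells overlapping. The log2 fold change was -2.22 (-2.41 to -2.09) with BLA-A, a 4.64-fold lower level, and 0.31 (0.23 to 0.40) with BLU-A. The antisense lncRNA gene E230016M11Rik shares 54.7% of the Gadd45a span and had 252 counts in untreated cells, 476 with BLA, 368 with BLU, 372 with BLA-A and 282 with BLU-A. It did not follow Gadd45a, whose counts were 2043, 2280, 2121, 373 and 2522 in the same order.

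Ccng1 and Sesn1 had the smallest ratios of highest to lowest level of the 10, 1.37 and 1.33. Ccng1 encodes a cyclin that recruits a phosphatase to Mdm2, and was at 32.7 CPM in untreated cells, 29.1 with BLA, 23.8 with BLU, 30.2 with BLA-A and 29.2 with BLU-A. By the intervals of the levels only BLU lay apart, with a log2 fold change of -0.45 (-0.60 to -0.31). The other 4 libraries overlapped each neighbour in order. The interval of the ratio to untreated cells also lay below 0 for BLA (-0.31 to -0.02) and BLU-A (-0.30 to -0.02). On the opposite strand Nudcd2 shares 55.9% of the Ccng1 span and had 1191, 837, 1141, 638 and 1126 counts in untreated, BLA, BLU, BLA-A and BLU-A cells, so it was lowest in BLA-A, where Ccng1 was not. Sesn1, which restrains growth signalling under stress, ran from 29.2 CPM in BLA-A to 38.9 with BLA with 34.0 in untreated cells, and each library overlapped its neighbours in order. The log2 fold changes of Sesn1 were 0.19, 0.12, -0.21 and -0.06 with BLA, with BLU, with BLA-A and with BLU-A. The interval of the ratio excluded 0 with BLA (0.07 to 0.33) and with BLA-A (-0.36 to -0.07).

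The death genes split by treatment. Bbc3 encodes Puma, a BH3-only protein that activates Bax, and was at 6.52 CPM in untreated cells, 11.3 with BLA, 10.1 with BLU, 11.6 with BLA-A and 12.7 with BLU-A. All 4 treated libraries lay above untreated cells beyond counting error and overlapped their neighbours. The log2 fold changes were 0.75 (0.52 to 1.07) with BLA, 0.60 (0.36 to 0.92) with BLU, 0.79 (0.55 to 1.12) with BLA-A and 0.91 (0.69 to 1.23) with BLU-A, and none was past the threshold. They share 1 untreated library with 174 counts of Bbc3, so the same denominator enters all 4.

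Bax, the pore-forming protein of the outer mitochondrial membrane, was at 7.76 CPM in untreated cells, 6.43 with BLA, 6.97 with BLU, 25.5 with BLA-A and 5.96 with BLU-A. Untreated, BLA, BLU and BLU-A cells overlapped in order, and BLA-A lay above them, with 591 counts against 207 in untreated cells. The log2 fold change in BLA-A was 1.66 (1.49 to 1.95), a 3.15-fold higher level. For BLU-A the interval of the ratio to untreated cells lay below 0 (-0.69 to -0.07). Phlda3, which blocks the membrane binding of the survival kinase Akt, had the fewest counts of the 10 in every library but BLA-A. It was at 2.36 CPM in untreated cells, 3.34 with BLA, 1.52 with BLU, 15.7 with BLA-A and 2.26 with BLU-A. It had 363 counts in BLA-A and 42 to 91 in the other libraries, whose levels overlapped each neighbour. The interval of the ratio to untreated cells excluded 0 for BLA (0.02 to 0.99) and for BLU (-1.23 to -0.05). The log2 fold change in BLA-A was 2.50 (2.34 to 3.14) and larger in size than those of 98.55% of genes.

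**Figure D2:**
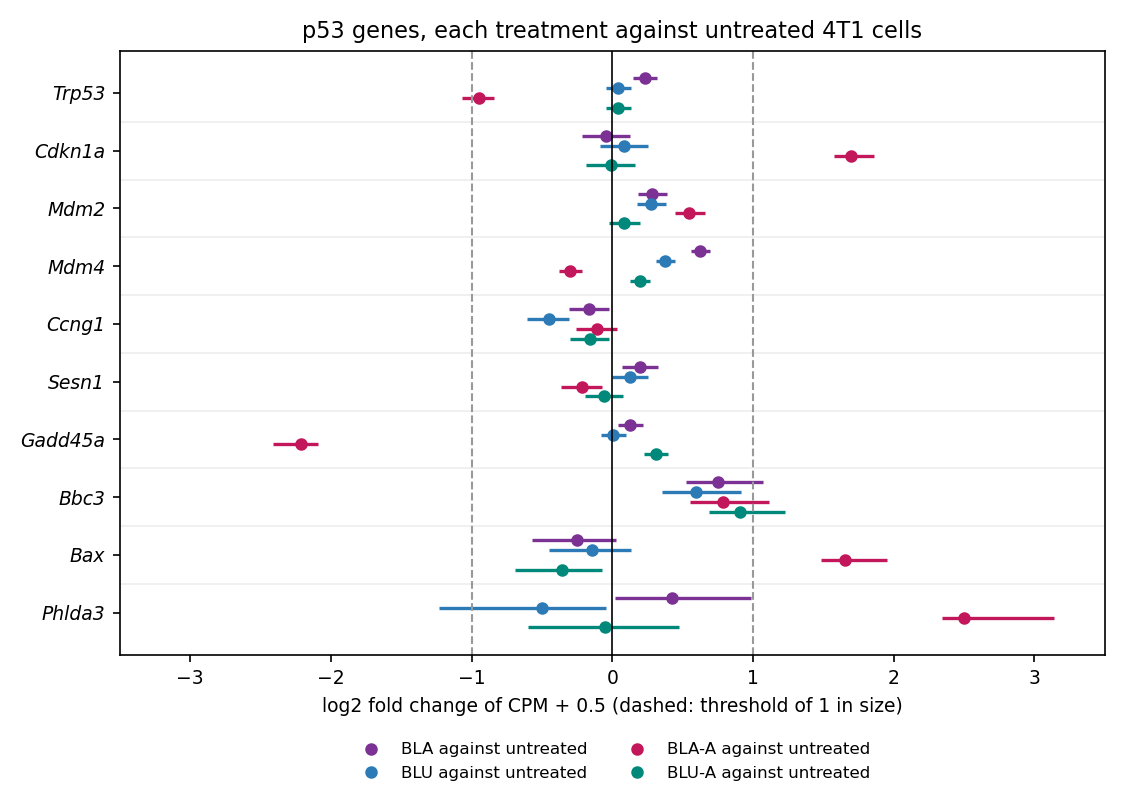
Log2 fold change of CPM + 0.5 of the 10 genes in each treatment against the 1 untreated library (points), with 95% counting intervals of the count ratio (lines) and the threshold of 1 in size (dashed). Past the threshold are Cdkn1a (1.69), Bax (1.66), Phlda3 (2.50) and Gadd45a (-2.22) with BLA-A, and no gene in the other 3 treatments.

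Counted together, 4 of the 10 genes were past the threshold in BLA-A, 3 higher and 1 lower, where 20.9% of the 17647 genes kept were past it (8.57% higher and 12.4% lower). None of the 10 was past it with BLA, BLU or BLU-A, where 16.5%, 10.3% and 7.85% of genes were. Low genes pass a fold threshold more often, and 8 of the 10 genes had a mean level between 10 and 100 CPM. In that range 13.7% of genes were past the threshold in BLA-A, beside 3 of the 8 (Cdkn1a, Gadd45a and Bax), and 5.38% with BLA, 2.40% with BLU and 0.901% with BLU-A. Phlda3 had a mean level between 1 and 10 CPM, where 27.3% of genes were past it in BLA-A. The median log2 fold change of the 10 was 0.21 with BLA, 0.06 with BLU, 0.22 with BLA-A and 0.02 with BLU-A, and that of all genes was between -0.01 and 0.00. In BLA-A the 10 genes were spread to both sides, 5 above 0 and 5 below.

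The nanoparticles were also set against the extract they were made with. BLA-A against BLA put 5 of the 10 genes past the threshold, 3 higher and 2 lower, beside 24.5% of all genes (11.6% higher and 12.9% lower). These were Cdkn1a at 1.74 (1.62 to 1.90), Bax at 1.91 (1.74 to 2.24), Phlda3 at 2.07 (1.89 to 2.58), Gadd45a at -2.34 (-2.54 to -2.22) and Trp53 at -1.17 (-1.30 to -1.07). Mdm4 was at -0.92, short of the threshold. BLU-A against BLU put none past it, beside 6.76% of all genes (2.87% higher and 3.89% lower), and the 10 log2 fold changes ran from -0.21 for Bax to 0.45 for Phlda3 (counting interval -0.02 to 1.18). Gadd45a was thus lower with the blackberry nanoparticles than with their extract and higher, by 0.30 (0.22 to 0.39), with the blueberry nanoparticles than with theirs.

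**Figure D3:**
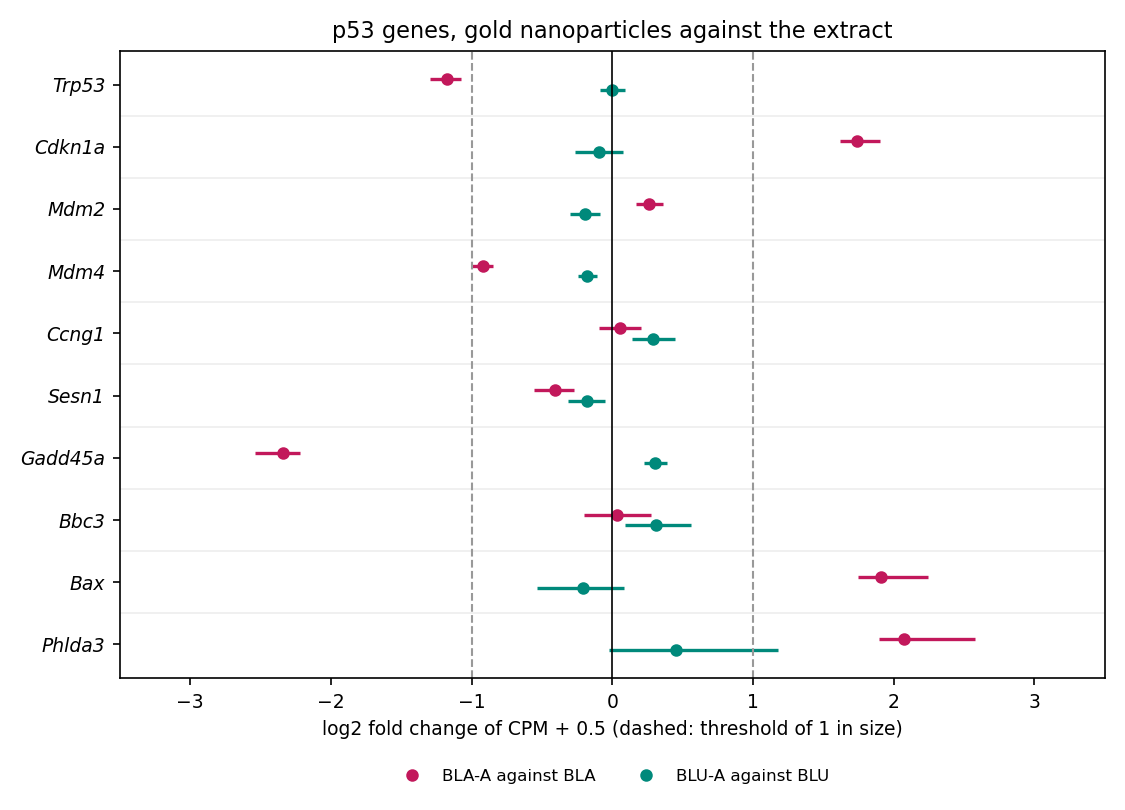
Log2 fold change of CPM + 0.5 of the 10 genes for each gold nanoparticle against its own extract, with 95% counting intervals of the count ratio and the threshold of 1 in size (dashed). Trp53 (-1.17), Cdkn1a (1.74), Gadd45a (-2.34), Bax (1.91) and Phlda3 (2.07) are past the threshold for BLA-A against BLA, and all 10 genes lie within it for BLU-A against BLU.

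Tests over libraries were possible only where treatments were pooled, and their spread is that between different treatments. The untreated arm, with 1 library, has no spread of its own, and 3 residual degrees of freedom remain, so a gene that is not called there says little. With the 4 treated libraries against the untreated one, edgeR's quasi-likelihood test called none of the 10 genes, beside 0.0227% of all genes (4 genes, all lower, 17 by DESeq2 without any of the 10, and 483, or 2.74%, at an unadjusted p under 0.05). Bbc3 had the smallest p of the 10, with a log2 fold change of 0.81 (SE 0.38), an unadjusted p of 0.066 and an adjusted p of 1.00 (edgeR), and it was higher in 4 of 4 treated libraries. Without the BLA-A library 46 genes were called, again none of the 10. Nanoparticles against extracts, 2 libraries each, gave 0% of genes called by edgeR (1055, or 5.98%, at an unadjusted p under 0.05, and 36 called by DESeq2). None of the 10 was among those called. The smallest edgeR adjusted p was 0.70, shared by Cdkn1a (log2 fold change 1.08, SE 0.52), Mdm4 (-0.54, SE 0.25), Bax (1.23, SE 0.64) and Phlda3 (1.88, SE 0.90). Without the BLA-A library the log2 fold changes were -0.03 for Cdkn1a, -0.31 for Mdm4, -0.17 for Bax and -0.10 for Phlda3, with none of the 10 called.

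Blackberry against blueberry libraries, again 2 each, also gave 0% of genes called by edgeR (674, or 3.82%, at an unadjusted p under 0.05, and 27 called by DESeq2, none of them among the 10). Phlda3 had the smallest p, with a log2 fold change of 2.32 (SE 0.77), an unadjusted p of 0.019 and an adjusted p of 0.95 (edgeR). Without BLA-A its log2 fold change was 0.82, with an unadjusted p of 0.21 (edgeR), and that of Cdkn1a went from 1.05 to -0.08 and that of Bax from 1.30 to -0.01. The pooled values thus rested on the BLA-A library. Leaving out BLU-A left BLA-A alone to stand for the nanoparticles. Log2 fold changes against the extracts were then -0.99 for Trp53, -0.70 for Mdm4 and -2.22 for Gadd45a. They were 1.80 for Cdkn1a, 2.03 for Bax and 2.79 for Phlda3. Those of Mdm2, Ccng1, Sesn1 and Bbc3 ran from -0.28 to 0.37. Leaving out BLA, so that BLA-A alone stood for blackberry, gave those 6 genes the same directions against blueberry. In both fits BLA-A had no spread of its own and was assumed to vary as the other libraries do. Those libraries are different treatments, so p-values and calls of both fits are not given.

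Other known p53 targets were counted in the same way. Of 42 further targets listed by role, 41 were in the table and 36 passed the filter. In BLA-A 6 of the 36 were past the threshold, 4 higher and 2 lower, against 4 with BLA (1 higher and 3 lower), 1 with BLU (higher) and 1 with BLU-A (lower). Their median log2 fold change was 0.27 with BLA-A, 0.06 with BLA, -0.04 with BLU and 0.00 with BLU-A. Of all genes kept, 8.57% were higher and 12.4% lower past the threshold in BLA-A, 7.94% and 8.52% in BLA, 5.67% and 4.6% in BLU, and 3.35% and 4.5% in BLU-A. Against the extracts, 12 of the 36 were past the threshold for BLA-A against BLA, 10 higher and 2 lower, beside the 11.6% of all genes that were higher and 12.9% that were lower, and their median was 0.09. Scaling by total counts made this 8 higher and 3 lower. Among them were Ei24, a death target, at 1.48 (1.37 to 1.62) and Ddb2, a repair gene, at -1.18 (-1.35 to -1.05). For BLU-A against BLU 2 of the 36 were past it, 1 higher and 1 lower.

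Of the 5 arrest targets kept, Plk3, a stress kinase, and Zmat3, an RNA-binding growth inhibitor, were past the threshold in BLA-A. Plk3 had 315 counts in untreated cells and 1462 with BLA-A, a log2 fold change of 2.37 (2.24 to 2.60), and Zmat3 had 407 and 821, a change of 1.19 (1.04 to 1.39). All 5 were above 0 with BLA-A, including Plk2, with the most counts in untreated cells, which had 61.0 CPM there and 73.0 in BLA-A. Under scaling by total counts 1 of the 5 was past the threshold in BLA-A. None of the 5 was past the threshold in BLA, BLU or BLU-A.

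The 9 other death targets did not share a direction in BLA-A, where 6 were above 0 and 3 below. Siva1, an adaptor of death receptors, was at 49.5 CPM in untreated cells and 13.9 with BLA-A, a log2 fold change of -1.79 (-2.01 to -1.65). Tnfrsf10b, the mouse TRAIL death receptor, had the most counts of the 9 in untreated cells and was at 53.3 CPM there and at 93.2 with BLA-A (0.80). Pidd1, the scaffold of a caspase-activating complex, was lower in BLA at -1.19 (-1.77 to -0.93), with 68 counts against 169. Pmaip1 and Eda2r did not pass the filter, with at most 0.259 and 0.226 CPM.

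Most repair targets lay below untreated cells in BLA-A and most metabolic targets above them. All 6 repair genes (Ddb2, Xpc, Rrm2b, Polk, Polh and Ercc5) were below 0 there, with a median of -0.42 and none past the threshold, and all 6 were above 0 with BLU-A, with a median of 0.26. In BLA-A 2 of the 6, Polk and Rrm2b, overlapped untreated cells within counting error, as did Rrm2b with BLU-A. Both counts held under the other scalings, but 2 of the 6 repair genes were above 0 with BLA-A without the filter on low counts. Polh, with the most counts of them in untreated cells, was at 55.8 CPM there, 44.3 with BLA-A and 67.4 with BLU-A. All 9 metabolic genes were above 0 with BLA-A, with a median of 0.52, and 8 of the 9 under scaling by total counts or with 10 counts required in every library. Pank1 overlapped untreated cells within counting error in BLA-A, and 5 of the 9 had under 100 counts in at least 1 library. How many of all genes kept overlapped untreated cells was not counted, so the overlaps of both lists have no background beside them. The share of all genes on each side of 0 was not counted either. The median log2 fold change of all genes was -0.01 with BLA-A and 0.00 with BLU-A. Ddit4, an inhibitor of mTOR signalling that also answers to hypoxia and stress hormones, led them with 488 counts in untreated cells and 2145 with BLA-A, a log2 fold change of 2.31 (2.20 to 2.48). Tigar, which limits glycolysis, was at -1.02 (-1.66 to -0.73) with BLA, with 58 counts against 129, and at 0.68 with BLA-A, and Pank1, with the most counts, stayed between 24.7 and 30.7 CPM.

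Among feedback, secreted and noncoding targets, Thbs1, the secreted target with the most counts, lay between 479 and 533 CPM in the 5 libraries. None of the 3 feedback genes was past the threshold, and Cop1, a p53 ubiquitin ligase, had 81.0 CPM untreated and 133 CPM with either extract. The lncRNA gene Pvt1 was at 352 CPM in untreated cells, 1010 with BLA, 906 with BLU, 461 with BLA-A and 684 with BLU-A, with log2 fold changes of 1.52 with BLA and 1.36 with BLU. Trp53cor1, an lncRNA gene next to Cdkn1a, had 69 counts in untreated cells, 12 with BLA, 57 with BLU, 12 with BLA-A and 7 with BLU-A, with log2 fold changes of -1.71, -0.27, -1.60 and -2.01.

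**Figure D4:**
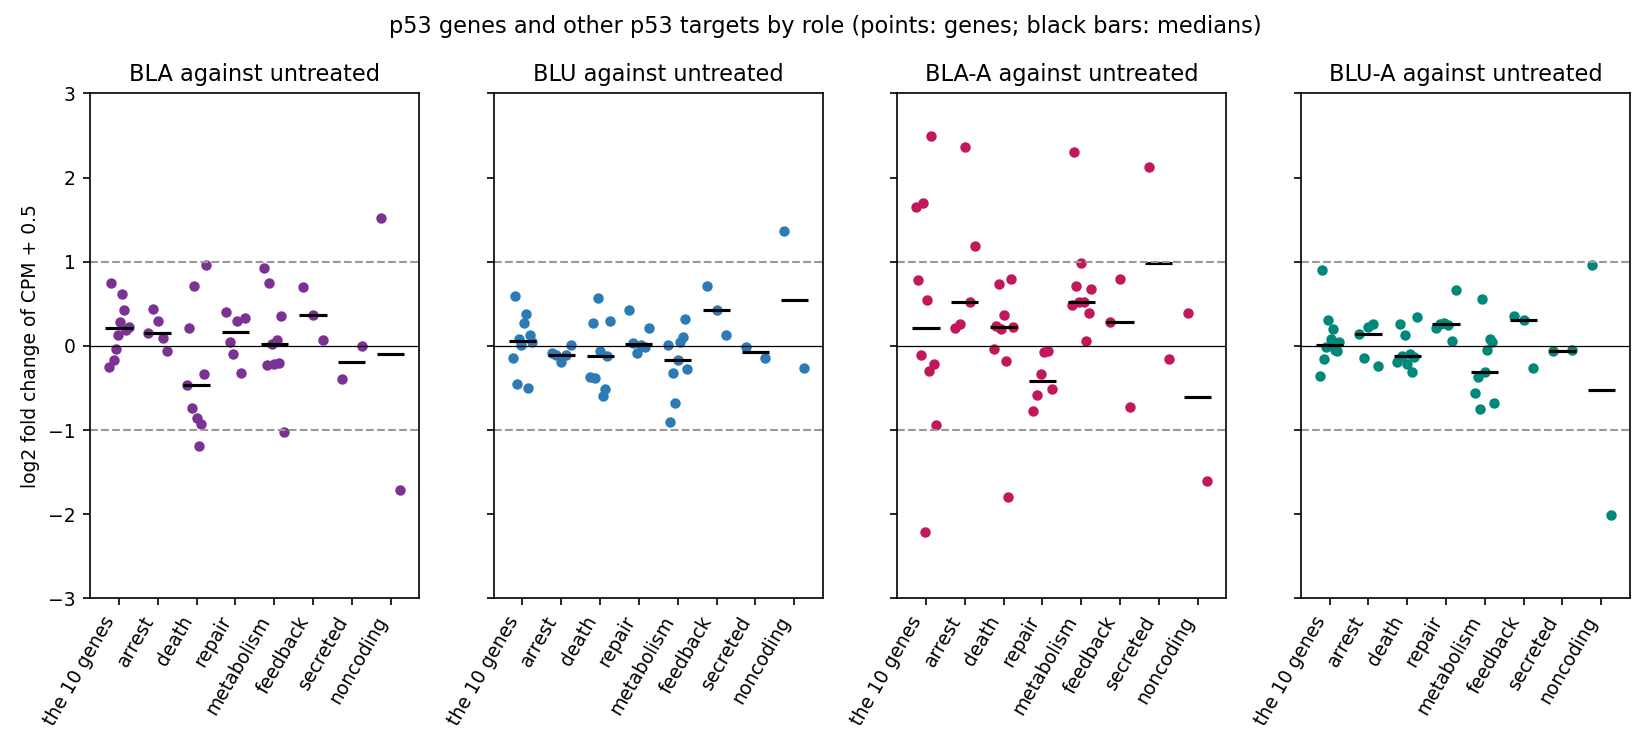
Log2 fold change of CPM + 0.5 against untreated cells for the 10 genes and 36 other p53 targets, by role and treatment (points are genes, black bars medians, dashed lines the threshold of 1 in size). The BLA-A panel has the widest spread, with Plk3 (2.37), Ddit4 (2.31) and Siva1 (-1.79) among those past the threshold, and its repair genes lie below 0.

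Upstream of p53, none of the 13 kept genes of the damage-sensing and stabilizing machinery was past the threshold in any treatment. Of all genes, 16.5% were with BLA, 10.3% with BLU, 20.9% with BLA-A and 7.85% with BLU-A. From 10 to 100 CPM these shares were 5.38%, 2.40%, 13.7% and 0.901%, and over 100 CPM they were 4.72%, 2.38%, 9.39% and 0.738%. None of 13 is near such shares and does not show that these genes were unchanged. Hipk2, a kinase of p53 with the most counts of them, was at 217 CPM in untreated cells and 344 with BLA-A. The damage kinases Atm and Atr were at -0.51 and -0.79 with BLA-A, and between -0.10 and 0.10 in the other treatments. Cdkn2a, which encodes the Mdm2 inhibitor Arf, had no count in any of the 5 libraries, where 3 counts correspond to 0.111 to 0.117 CPM before TMM.

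Of the p53 relatives and cofactors, Trp53bp2, with the most counts, lay between 80.0 and 108 CPM. Trp63, the p53 family member of squamous and basal epithelium, had 62 counts in untreated cells, 24 with BLA, 16 with BLU, 11 with BLA-A and 59 with BLU-A. Its log2 fold changes were -1.03 with BLA, -1.39 with BLU and -1.53 with BLA-A, and with 2 CPM added in place of 0.5 none was past the threshold. Trp73 did not pass the filter, with 2 to 21 counts.

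Levels can be compared between genes only per length. Reads were counted over whole genes, introns included, and per kilobase of gene span in untreated cells Gadd45a was highest at 32.3 CPM, followed by Trp53 at 5.61 and Ccng1 at 4.82, with Phlda3 at 0.609 and Sesn1 at 0.345 the lowest. Per kilobase of annotated exon Gadd45a was again highest at 43.2 CPM, Trp53 followed at 9.91, and Bbc3 at 1.36 and Phlda3 at 0.913 were lowest. Sesn1 stood at 6.74 CPM on this scale, since exons make up 5.12% of its 98.49-kilobase span. Of the 10 genes, 8 overlapped another annotated gene on the opposite strand, Bbc3 and Phlda3 did not, and 4 of the partners were in the count table. The fourth, Cep57l1, shares 0.556% of the Sesn1 span and had 522 counts in BLA-A to 915 with BLU.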

How the data were processed

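Bulk RNA-seq of 4T1 cells in 5 conditions was used. The authors deposited raw counts per gene, not normalized, for 40402 genes in 15 labelled columns, after ribosomal RNA removal, STAR alignment to GRCm39 and strand-specific counting on features of type gene in OmicsBox. DESeq2 1.36.0 is named in the submitters' processing notes. The deposited tables of the authors' own comparisons and gene set scores were not used.

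Within each condition the 3 columns lay closer together than sampling noise (chi-square per degree of freedom from 0.095 to 0.475, limit 1.5) and were averaged and rounded to 1 library, so p-values across columns would measure technical spread only. All 15 columns were used. A gene was kept with 1 CPM or more in any library (17647 genes), normalized by TMM in edgeR 4.0.16, and compared as log2 of CPM + 0.5, with no test between single libraries. Pooled contrasts used edgeR's quasi-likelihood test, adjusted by Benjamini-Hochberg and called at 0.05, over all genes kept, and DESeq2 1.42.0 was an alternative. On simulated data for the 4 treated libraries against the untreated one (17647 genes, 200 changed), a coefficient of variation of 0.45 gave 15% of 4-fold and 98% of 16-fold changes recovered, and 0.2 gave 99% and 100%. The fitted coefficient of variation was 0.452. R 4.3.3, Python 3.11.15 and pandas 2.3.3 were used.

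The 10 genes, the gene lists and the thresholds were chosen with earlier results of these data known. From the other lists, the text names each gene past the threshold in at least 1 treatment with 10 or more counts in either library, the gene highest in untreated cells, and genes overlapping the 10. Atm, Atr, Cdkn2a, Trp73, Pmaip1, Eda2r, Ei24, Lyz2, Hbb-bs and the other repair genes are outside this rule and were named after their values were seen. Positions, exons and overlaps come from GENCODE release M39 on GRCm39, the build of the counts. Depth set a floor of 3 counts, which, like the intervals, covers counting error only. Alternatives covered normalization, filter, pseudocount, columns left out, columns as separate samples, libraries left out and the test. One gene that the rule names is not reported here by name and is included in the counts of the wider list.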

Additional observations from a re-analysis of the deposited data

Results flagged for a closer look

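Among the 4 treated libraries, 5 of the 10 genes had a library set apart from the other 3 by a gap, as a share of the whole range of log2 CPM, above Dixon's 95% critical value for 4 samples. BLA-A was that library for Cdkn1a (gap over range 0.929), Bax (0.896), Gadd45a (0.879) and Trp53 (0.841), and BLU was for Ccng1 (0.845). Trp53 and Gadd45a were lowest in BLA-A, Cdkn1a and Bax were highest there, and Ccng1 was lowest in BLU. Chance alone sets apart about 1 group in 20. Of the 17647 genes kept, 9.61% had such a library, and BLA-A was it for 6.83%. The 4 libraries are different treatments, not replicates, so the gap describes how unlike the others 1 treatment was. Phlda3, whose BLA-A level was 15.7 CPM against 1.52 to 3.34 in the other treatments, had a ratio of 0.692.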

How the results depend on the processing

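Counts of the 10 genes past the threshold kept to within 1.5 times of the reported ones in all 6 comparisons under the other scalings, filters, pseudocounts and left-out columns. In BLA-A against untreated cells they were 4 or 5, since Trp53 ran from -1.14 to -0.85 and was past -1 with total-count scaling or with 10 counts required in every library. In BLA-A against BLA they were 5 or 6, since Mdm4 ran from -1.08 to -0.84. Cdkn1a (1.503 to 1.78), Bax (1.47 to 1.74), Phlda3 (2.02 to 2.68) and Gadd45a (-2.40 to -2.12) stayed past it in BLA-A under each of the 9 settings.

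The other p53 targets past the threshold went from 4 to 1 in BLA with 2 CPM added, and from 1 to 0 in BLU-A with 10 counts required in every library. For BLU-A against BLU, a comparison of this list added after seeing the data, they went from 2 to 1 with 10 counts required in every library and to 0 with 2 CPM added, and for BLA-A against BLA they were 10 to 12. The upstream genes and relatives went from 1 to 2 in BLA and in BLA-A without a filter, and from 1 to 0 in BLA, BLU and BLA-A with 2 CPM added. With a column left out they were 0 to 1 in BLA. The cause was not tested.

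Genes called with the 4 treated libraries against the untreated one went from 4 to 2 with 10 counts required in every library and to 17 with DESeq2, and ran from 3 to 46 with a library left out (46 without BLA-A). Without a filter, 554 genes were called for nanoparticles against extracts and 289 for blackberry against blueberry, where edgeR otherwise called 0, and Cdkn1a (adjusted p = 0.038) and Phlda3 (adjusted p = 0.014) were among them. DESeq2 called 36 and 27. With a treated library left out the counts ran from 1 (without BLU) to 4198 (without BLU-A) for nanoparticles, with 7 without BLA and 51 without BLA-A, and from 21 (without BLU) to 5043 (without BLA) for blackberry, with 339 without BLA-A and 23 without BLU-A.

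The replicate numbers of the labels did not pair the columns, since same-numbered columns of different conditions did not deviate together (mean correlation -0.0011 over 30 pairs). With all 15 columns entered as separate samples, the 3 contrasts called 3803, 9060 and 7352 genes with no replicate block and 2753, 7893 and 5946 with the replicate block. Those p-values measure spread between columns of 1 library. Depth left Phlda3, Pidd1, Tigar, Trp63 and Trp53cor1, among other listed genes, with under 100 counts in at least 1 library. Every comparison is limited by 1 library per condition.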
